A study of Homo sapiens with 12 samples.

Results

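Hemogenic endothelial cells (HEs) are the endothelial cells from which the first blood cells bud in the endothelial-to-hematopoietic transition. GATA2 is a zinc finger transcription factor that binds GATA motifs in DNA. In HEs and blood progenitors it acts together with TAL1, LMO2, RUNX1 and ETS family proteins. Loss of GATA2 in mice is known to leave few blood progenitors. The comparison described here addressed how the HE transcriptome differed at day 8 when GATA2 was disrupted, before the cells carried the blood surface marker CD43.

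The cells came from H1, an established human embryonic stem cell line, grown on OP9 mouse stromal cells. WT HEs came from unmodified H1 and GATA2-/- HEs from 1 H1 clone in which both GATA2 alleles were disrupted at exon 3 by a PGK-driven neomycin cassette, so effects of the clone and of the genotype cannot be told apart. HEs were sorted as CD34+CD31+CD43- cells at day 8 with 2 libraries per genotype, and CD34+CD43+ hematopoietic progenitor cells (HPCs) sorted at day 9, again with 2 libraries per genotype, are used for comparison. The labels do not say that libraries of a group came from separate cultures, so p-values measure only the spread between these libraries. The series also holds 2 GATA2-/- hESC libraries, which entered the shared variance estimate, and the WT hESC samples were not analysed here.

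The genes described are the 13115 protein-coding genes with a TPM (transcript abundance scaled to a common total) of at least 1 in at least 2 of the 4 HE libraries, out of 56266 genes listed for each library. Read depth cannot be recovered from TPM and is unknown here, and each value is relative to the other transcripts of its library. The HE libraries had 16209 to 16663 genes at a TPM of at least 1. Endothelial genes were high in all 4 HE libraries, with CDH5 (VE-cadherin) between 514.2 and 613.6 TPM, KDR (the VEGF receptor 2) between 759.1 and 879.2 TPM and CD34 between 605.4 and 1060 TPM. SPN, which encodes CD43, was between 1.76 and 8.81 TPM in HEs and between 98.0 and 107.9 TPM in HPCs, with overlap between genotypes in both stages. PECAM1 (CD31) was not analysed here. GATA2 itself (chromosome 3 from 128198270 to 128212044, minus strand, GRCh37) had a TPM of 106.8 and 78.0 in WT HEs and of 110.9 and 94.1 in the HE libraries labelled GATA2-/-. Because RNA made from the disrupted alleles would also be counted in a gene's TPM, these values cannot check the labels.

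Most of the HE transcriptome was close between genotypes. The log2 fold change (GATA2-/- over WT, from log2(TPM + 1), which understates the change of low genes) was between −0.5 and 0.5 in 85.7% of the 13115 genes, with a median of −0.03. Pearson's r of log2(TPM + 1) across these genes, which are not independent replicates, was 0.971 between the WT libraries, 0.969 between the GATA2-/- libraries and between 0.961 and 0.973 for the 4 pairs of a WT and a GATA2-/- library. The 2 GATA2-/- libraries were both lower than the 2 WT libraries in 2479 genes (18.9%) and both higher in 1887 genes (14.4%), against 16.5% and 13.8% of all 21543 genes tested. Such non-overlap with a difference over 1 on the log2 scale was seen in 252 of the 13115 genes that were lower and 98 that were higher. The share over all genes tested was not counted. Genes that passed the expression filter only through 1 genotype have their direction set by the filter and were not removed from these counts. In limma, 410 genes (3.13%) were lower and 192 (1.46%) were higher at an unadjusted p under 0.05, against 2.87% and 1.98% of all genes tested. After Benjamini-Hochberg adjustment over all 21543 genes tested, 1 protein-coding gene (0.00762%) fell and 0 rose, and 4 of all genes tested passed (0.0186%).

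The gene that fell was PF4 (platelet factor 4, a chemokine stored in megakaryocyte and platelet granules; chromosome 4 from 74846528 to 74847744, minus strand, GRCh37). PF4 had a TPM of 37.3 and 32.1 in WT HEs and of 3.66 and 4.70 in GATA2-/- HEs. The 2 genotypes were far apart relative to their replicates, at 34.7 ± 3.68 and 4.18 ± 0.735 TPM (SD, n = 2), an 8.31-fold lower level. On the log2 scale this was −2.79 with a standard error of 0.27 (limma adjusted p = 0.0249). In HPCs PF4 had a mean TPM of 253.5 in WT and 88.0 in GATA2-/- cells, or −1.49 on the log2 scale (limma adjusted p = 0.153). The call was lost when only the 4 HE libraries were fitted (limma adjusted p = 0.303). It was also lost when any HE library was left out, which leaves 1 library in a group. With a library left out the log2 fold change of PF4 stayed between −2.93 and −2.64, and over the other settings between −3.03 and −2.68.

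The next largest differences were described by a fixed rule, the 12 largest in each direction among genes whose HE mean reached a TPM of 10, with no overlap between genotypes and an unadjusted p under 0.05. None of these genes other than PF4 passed the adjusted threshold. The 12 lower genes held 4 genes of red cells or their precursors. The transcripts of the red cell surface glycophorins GYPE and GYPB differed by −3.23 and −2.20 on the log2 scale, ALAS2, the erythroid enzyme that starts heme synthesis, by −1.98, and NFE2, a transcription factor of megakaryocytes and erythroid cells, by −2.33. SPI1, which encodes PU.1, the master factor of myeloid cells, differed by −2.50. GSTA1, a glutathione transferase, differed by −2.52 and SFRP5, a secreted WNT antagonist, by −2.36. GYPE had a TPM of 47.7 and 22.6 in WT HEs and of 7.23 and 0.58 in GATA2-/- HEs. Without GATA2-/- library 2, the lower of that pair for each, the difference of GYPE was −2.04, that of GSTA1 −1.66 and that of ALAS2 −1.30.

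**Figure D1:**
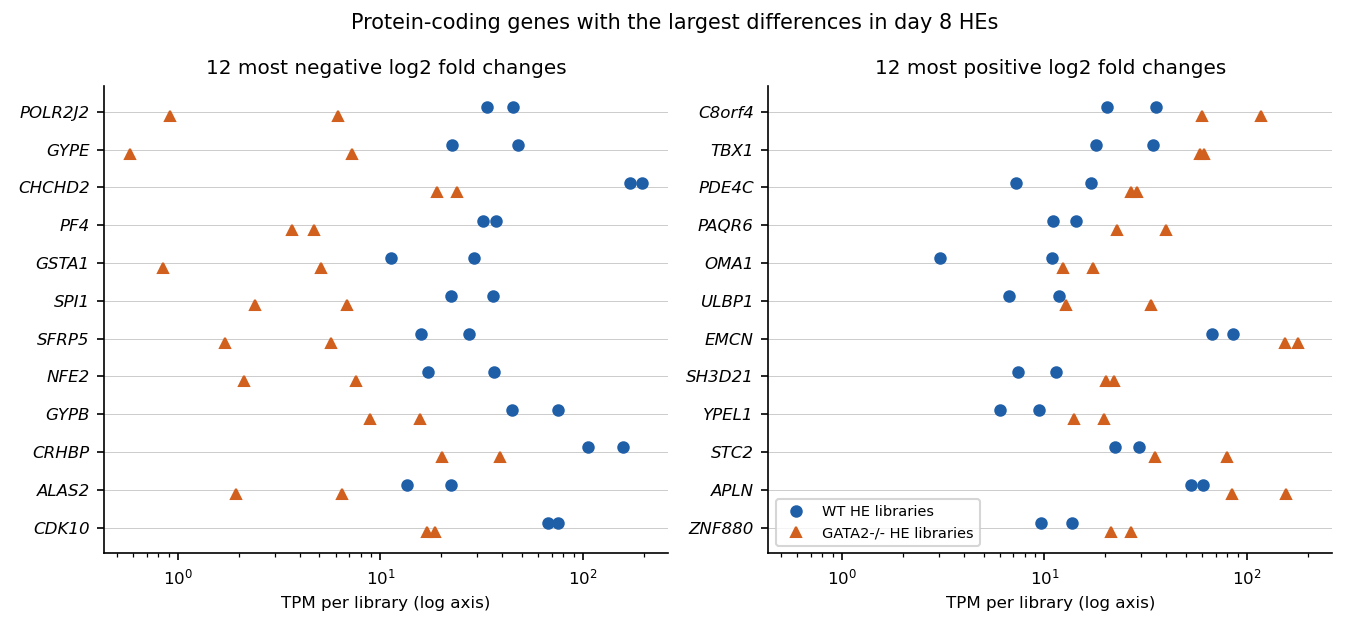
TPM of each of the 4 day 8 HE libraries (log axis) for the 12 protein-coding genes with the most negative log2 fold changes (left) and the 12 with the most positive (right). Circles are the 2 WT libraries and triangles the 2 GATA2-/- libraries. By the rule that chose these genes the groups do not overlap. The gap is widest against the replicate spread for CHCHD2, PF4 and CDK10 on the left, and the groups nearly touch for OMA1 and ULBP1 on the right.

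Some of the lower genes were in none of the blood gene lists described below. CHCHD2, a mitochondrial protein gene, had a TPM of 170.6 and 196.4 in WT HEs and of 19.0 and 24.0 in GATA2-/- HEs, an 8.54-fold lower level (log2 fold change −3.04, standard error 0.75). GATA2-/- HPCs split, with 21.7 and 152.4 TPM of CHCHD2, against 203.2 and 357.6 TPM in WT HPCs. GATA2-/- hESCs had 30.2 and 63.1 TPM, with no WT hESC library analysed to compare them with. CRHBP, which encodes the binding protein of corticotropin-releasing hormone, had a TPM of 106.4 and 157.8 in WT HEs and of 20.2 and 38.8 in GATA2-/- HEs (log2 fold change −2.17, standard error 0.65). CRHBP was low in all HPC libraries, from 0.85 to 8.18 TPM. CDK10, a cyclin-dependent kinase, had 75.3 and 67.5 TPM in WT HEs and 18.7 and 17.1 TPM in GATA2-/- HEs. GATA2-/- HPCs again split, with 21.2 and 75.3 TPM of CDK10. Standard errors used the variance shared over all groups, so these HPC splits entered the HE standard errors of CHCHD2 and CDK10. POLR2J2, a subunit gene of RNA polymerase II with near-identical copies, was listed under 2 gene IDs. The first gave the log2 fold change of −3.43, but the second was at 0 in both WT HE libraries and at 9.74 and 18.3 TPM in the GATA2-/- libraries. Their sum was 33.6 and 44.9 TPM in WT and 15.9 and 19.2 TPM in GATA2-/- HEs.

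Among the 12 higher genes, EMCN and APLN belong to endothelium. EMCN (endomucin, a sialomucin of venous and capillary endothelium) had a TPM of 67.4 and 85.3 in WT HEs and of 153.3 and 179.2 in GATA2-/- HEs, 2.18-fold higher (log2 fold change 1.12, standard error 0.37, unadjusted p = 0.0147 from limma). APLN, which encodes the apelin peptide made by sprouting endothelium, had 60.6 and 52.9 TPM in WT and 155.2 and 84.1 TPM in GATA2-/- HEs. Both genes were also higher in GATA2-/- HPCs, but at low levels there, with a mean of 14.4 TPM for EMCN and 7.27 TPM for APLN. C8orf4, a small regulator of WNT and Notch signalling, had the largest log2 fold change of this group at 1.60, with 20.3 and 35.7 TPM in WT and 59.7 and 116.9 TPM in GATA2-/- HEs. The T-box factor gene TBX1 had 17.9 and 34.3 TPM in WT and 58.9 and 61.6 TPM in GATA2-/- HEs. The others, from 1.24 to 0.99 on the log2 scale, were PDE4C, PAQR6, OMA1, ULBP1, SH3D21, YPEL1, STC2 and ZNF880. Several of these sizes rested on 1 library. Without GATA2-/- library 1 the log2 fold change of APLN was 0.56, of ULBP1 0.47 and of STC2 0.45. Without WT library 1 that of TBX1 was 0.79 and of PDE4C 0.68, and without WT library 2 that of OMA1 was 0.39.

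**Figure D2:**
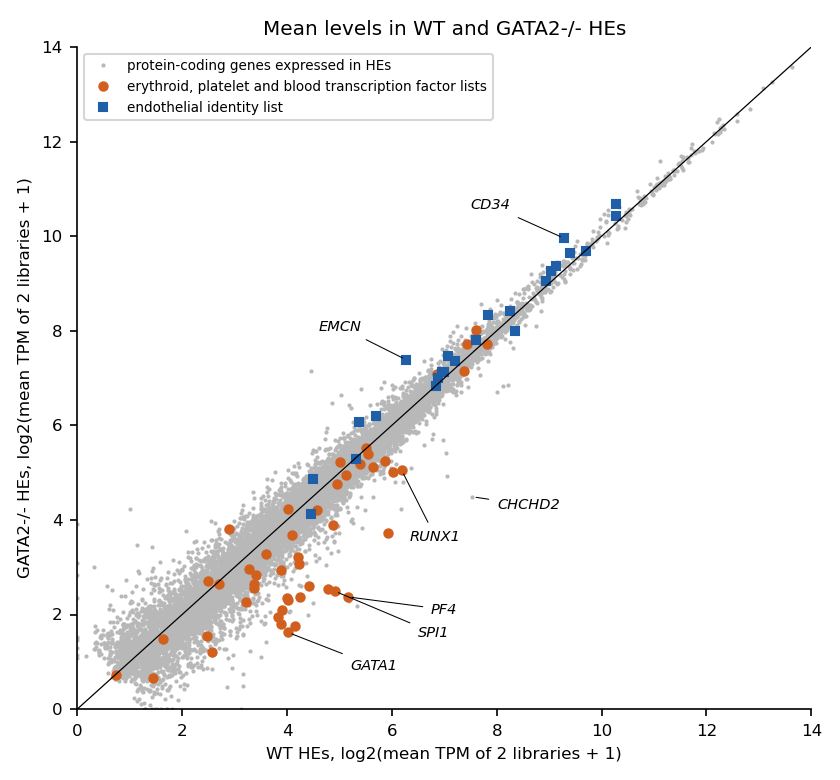
Mean level of each of the 13115 protein-coding genes in WT HEs (horizontal) and GATA2-/- HEs (vertical), as log2 of the mean TPM of 2 libraries plus 1. The line marks equal levels. Many erythroid, platelet and blood transcription factor genes (orange) lie below the line, as do many genes of no list (grey), and most endothelial genes (blue) lie near or just above it.

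Transcription factors of the HE and blood program did not share 1 direction, and the largest differences were negative. Of the 23 factors expressed in HEs, 12 were lower in both GATA2-/- libraries than in both WT libraries and 2 were higher, against 18.9% and 14.4% of all genes. At an unadjusted p under 0.05 there were 8 lower and 0 higher, against 3.13% and 1.46% of all genes, and 0 passed after adjustment. The list median was −0.40 on the log2 scale, which became −0.66 without GATA2-/- library 1. The median of all 13115 genes was −0.03.

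The lower factors act in emerging and maturing blood cells. SPI1 had a TPM of 35.8 and 22.2 in WT HEs and of 6.87 and 2.41 in GATA2-/- HEs (unadjusted p = 0.000221 from limma). GATA1, the erythroid and megakaryocytic GATA factor, had 18.4 and 12.1 TPM in WT and 2.78 and 1.37 TPM in GATA2-/- HEs, or −2.41 on the log2 scale (standard error 0.31, limma adjusted p = 0.0814). That was the lowest adjusted p among the genes not called. NFE2 had 36.2 and 17.2 TPM in WT and 7.58 and 2.13 TPM in GATA2-/- HEs.

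KLF1, the erythroid Krüppel-like factor, had 19.6 and 6.73 TPM in WT and 4.68 and 0.98 TPM in GATA2-/- HEs, with the nearest libraries of the 2 genotypes close together. MYB, required for definitive progenitors, had 26.5 and 14.5 TPM in WT and 6.67 and 3.53 TPM in GATA2-/- HEs (log2 fold change −1.81). IKZF1, the lymphoid and progenitor factor Ikaros, had 5.82 and 4.02 TPM in WT and 1.14 and 1.47 TPM in GATA2-/- HEs (−1.35). The second library of each genotype had the lower value for SPI1, GATA1, NFE2, KLF1 and MYB, but not for IKZF1 in GATA2-/- HEs.

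RUNX1, the factor needed for the transition itself, had 77.9 and 65.9 TPM in WT and 44.8 and 19.4 TPM in GATA2-/- HEs (log2 fold change −1.25, standard error 0.48, unadjusted p = 0.0288 from limma). GFI1, a repressor of the endothelial program, had 33.6 and 23.0 TPM in WT and 19.9 and 7.58 TPM in GATA2-/- HEs (−1.11). Its relative GFI1B overlapped between genotypes, at 45.8 and 36.6 TPM in WT and 45.7 and 24.8 TPM in GATA2-/- HEs.

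For other factors the genotypes overlapped or differed little. TAL1 had 188.8 and 156.6 TPM in WT and 261.0 and 155.6 TPM in GATA2-/- HEs, and FLI1 had 233.3 and 217.1 TPM in WT and 200.4 and 222.1 TPM in GATA2-/- HEs, with overlap for both. LMO2, the bridging partner of TAL1, had 197.8 and 188.0 TPM in WT and 275.4 and 237.7 TPM in GATA2-/- HEs (log2 fold change 0.41, unadjusted p = 0.0783 from limma). HHEX, LYL1, MEIS1 and CBFB differed by between −0.23 and 0.22 on the log2 scale, with MEIS1 and CBFB among the 12 that were lower without overlap. ETV2, an early factor of blood and endothelial precursors, was low in both genotypes, from 3.65 to 7.47 TPM. The related factor GATA3 had 31.0 and 28.7 TPM in WT and 30.3 and 21.96 TPM in GATA2-/- HEs.

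**Figure D3:**
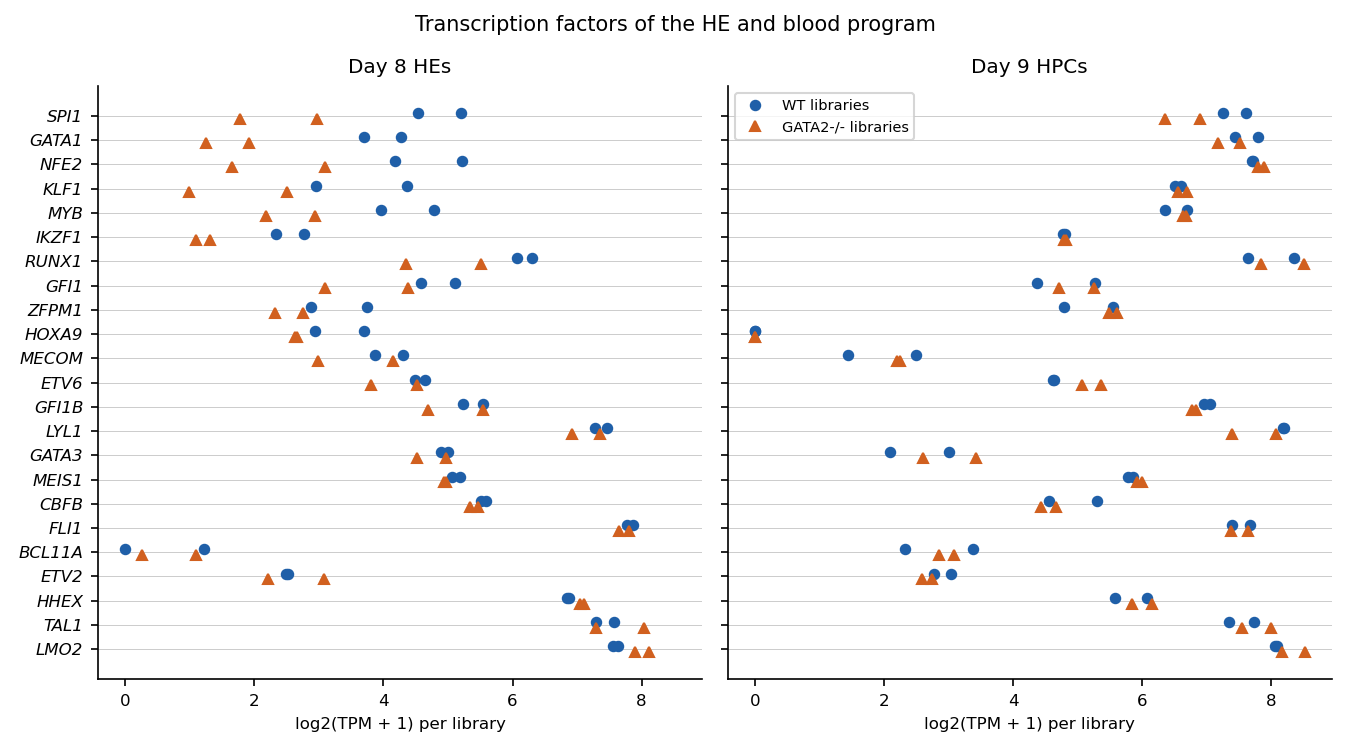
log2(TPM + 1) of 23 transcription factors of the HE and blood program in each HE library (left) and HPC library (right), ordered by the HE difference. Circles are WT and triangles GATA2-/- libraries. The factors at the top are apart between genotypes in HEs and overlap or lie close together in HPCs, except SPI1, whose GATA2-/- values are the lower in both stages.

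Erythroid genes had low levels in HEs and were mostly lower in the GATA2-/- libraries. In bulk samples, fewer cells of a type and less RNA per cell cannot be told apart. Of the 11 erythroid genes expressed in HEs, 8 were lower without overlap, 0 were higher, and 7 were lower at an unadjusted p under 0.05. Over all 13115 genes, the share without overlap was 18.9% lower and 14.4% higher. At an unadjusted p under 0.05 it was 3.13% lower and 1.46% higher. These shares apply to each list below. The erythroid median was −1.19 on the log2 scale. GYPB had a TPM of 75.1 and 44.5 in WT and of 15.7 and 8.83 in GATA2-/- HEs. KEL, which encodes the Kell blood group protein, had 20.9 and 14.1 TPM in WT and 11.2 and 5.25 TPM in GATA2-/- HEs (log2 fold change −1.06). Reads of GYPB and GYPE may be shared with near-identical copies, so their separate values are uncertain.

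Not all globin genes remained apart when near-identical copies were summed. HBE1 (embryonic epsilon globin) had 15.3 and 12.7 TPM in WT and 3.39 and 3.13 TPM in GATA2-/- HEs (log2 fold change −1.81). HBG1 and HBG2 (fetal gamma globin) summed to 16.8 and 20.3 TPM in WT and 5.50 and 10.01 TPM in GATA2-/- HEs. HBA1 (alpha globin) had a log2 fold change of −2.30, but HBA1 and HBA2 summed to 20.9 and 9.06 TPM in WT and 10.2 and 8.13 TPM in GATA2-/- HEs, which overlap. The erythroid counts and median above take HBA1 alone as a lower gene, and HBA2 did not pass the expression filter. ALAS2 had 22.4 and 13.5 TPM in WT and 6.47 and 1.93 TPM in GATA2-/- HEs. The receptors EPOR and TFRC, which bind erythropoietin and transferrin, overlapped between genotypes, with log2 fold changes of 0.17 and 0.19.

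Of the 15 megakaryocyte and platelet genes, 11 were lower without overlap and 1 was higher, against 18.9% and 14.4% of all genes. At an unadjusted p under 0.05, 9 were lower (3.13% of all genes), with PF4 the member that fell after adjustment. RGS18, counted as lower both ways, passed the expression filter only through its WT libraries, so the filter set its direction. The median log2 fold change was −0.77. ITGB3, the beta chain of the fibrinogen receptor, had 17.6 and 10.2 TPM in WT and 3.87 and 1.08 TPM in GATA2-/- HEs (−2.18). Its partner ITGA2B (CD41) had 69.1 and 59.0 TPM in WT and 41.2 and 21.5 TPM in GATA2-/- HEs (−1.07). THBS1, which encodes thrombospondin 1, had 16.0 and 14.4 TPM in WT and 4.44 and 3.39 TPM in GATA2-/- HEs (−1.73). GP1BB, a subunit of the von Willebrand factor receptor, was the exception, at 5.58 and 7.32 TPM in WT and 15.0 and 11.1 TPM in GATA2-/- HEs, while its partner GP1BA had a log2 fold change of −0.96.

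Myeloid and pan-blood genes differed less. Of 15 myeloid genes, 5 were lower and 2 higher without overlap, against 18.9% and 14.4% of all genes. Of the 15, 1 (LYZ, lysozyme, log2 fold change −0.98) had an unadjusted p under 0.05. The median was −0.35. CSF1R, the macrophage colony-stimulating factor receptor, was low at 6.92 and 2.55 TPM in WT and 2.40 and 1.18 TPM in GATA2-/- HEs. The granule genes MPO, ELANE and PRTN3 were between 0 and 0.15 TPM in all HE libraries. Of 19 pan-blood genes, 7 were lower and 4 higher without overlap, against the same shares of all genes, with a median of −0.21. ANGPT1, the ligand of the TEK receptor, had 11.5 and 14.9 TPM in WT and 6.31 and 3.93 TPM in GATA2-/- HEs (−1.23), and the phosphatase gene PTPN6 had 29.0 and 26.5 TPM in WT and 15.6 and 11.5 TPM in GATA2-/- HEs (−0.99). KIT, the stem cell factor receptor and a known GATA2 target, went the other way, at 21.8 and 23.2 TPM in WT and 45.2 and 40.1 TPM in GATA2-/- HEs (log2 fold change 0.89, standard error 0.27, unadjusted p = 0.00916 from limma). Its HPC log2 fold change was 1.39, with means of 3.53 TPM in WT and 11.1 TPM in GATA2-/- HPCs. PTPRC (CD45) was listed at 0 in all HE libraries and was at most 3.09 TPM in HPCs.

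GATA factors bind short motifs, so promoters of some of the genes that were lower together, and of an endothelial gene that was higher, are shown here. Each is the 250 bases before the RefSeq start (GRCh38.p14), read 5′ to 3′ on the gene's strand, and capitals mark a GATA motif match, that is AGATAA, where the first letter may instead be T and the last may instead be G, on either strand. The matches begin 66 and 13 bases before the start in KLF1, 127 in ALAS2, 102 in ITGA2B and 44 in EMCN. Every promoter shown holds a match, but not every lower gene has one. The entries of the lower factors RUNX1, GATA1, GFI1 and MYB hold none, while an entry of the lower factor IKZF1 holds 2.
KLF1 (chr19:12887202-12887451, minus strand): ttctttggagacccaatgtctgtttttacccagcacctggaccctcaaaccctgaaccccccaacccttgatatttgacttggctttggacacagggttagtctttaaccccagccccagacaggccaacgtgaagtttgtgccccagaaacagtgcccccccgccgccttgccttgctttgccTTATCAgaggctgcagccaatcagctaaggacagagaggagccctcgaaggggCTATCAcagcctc
ALAS2 (chrX:55030978-55031227, minus strand): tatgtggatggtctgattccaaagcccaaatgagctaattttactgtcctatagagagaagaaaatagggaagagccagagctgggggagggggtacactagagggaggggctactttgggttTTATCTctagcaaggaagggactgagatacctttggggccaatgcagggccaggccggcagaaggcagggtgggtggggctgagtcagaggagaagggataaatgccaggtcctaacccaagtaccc
ITGA2B (chr17:44389650-44389899, minus strand): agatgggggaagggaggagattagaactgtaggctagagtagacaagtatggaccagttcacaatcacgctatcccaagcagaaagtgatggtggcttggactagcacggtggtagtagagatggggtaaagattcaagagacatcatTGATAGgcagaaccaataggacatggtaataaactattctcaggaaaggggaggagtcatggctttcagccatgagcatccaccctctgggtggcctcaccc
EMCN (chr4:100518023-100518272, minus strand): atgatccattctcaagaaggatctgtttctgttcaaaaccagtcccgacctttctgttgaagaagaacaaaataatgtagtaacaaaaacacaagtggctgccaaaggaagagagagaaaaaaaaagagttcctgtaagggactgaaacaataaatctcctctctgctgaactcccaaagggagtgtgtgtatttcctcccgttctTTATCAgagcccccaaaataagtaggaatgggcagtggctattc
Such a match stood in 17 of 30 genes with a promoter entry (56.7%) from the transcription factor, pan-blood, erythroid, platelet and myeloid lists that were lower without overlap, in 11 of 31 other genes of those lists (35.5%) and in 7 of 15 endothelial genes (46.7%). Among all 27305 genes with an entry the share was 26.2%, and among the 9808 matched genes of the 13115 it was 18.6%. A match of letters is not a bound site.

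Endothelial identity genes were high in both genotypes, with mostly small positive differences in GATA2-/- HEs. Of the 24 genes, 19 had a log2 fold change above 0. Without overlap, 10 were higher and 1 was lower, against 14.4% and 18.9% of all genes. At an unadjusted p under 0.05, 2 were higher (EMCN and CD34), against 1.46% of all genes. The median was 0.19, which became 0.31 without WT library 2. CD34 had 640.5 and 605.4 TPM in WT and 1060 and 925.0 TPM in GATA2-/- HEs (log2 fold change 0.67, standard error 0.22, unadjusted p = 0.016 from limma). CD34 was also a gate of the sort.

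The other 22 endothelial genes did not pass an unadjusted p under 0.05. KDR had 838.7 and 820.1 TPM in WT and 879.2 and 759.1 TPM in GATA2-/- HEs. PLVAP, a protein of endothelial diaphragms, had 1327 and 1153 TPM in WT and 1815 and 1475 TPM in GATA2-/- HEs (log2 fold change 0.40, unadjusted p = 0.146 from limma). ICAM2 was the gene that was lower without overlap, at 313.1 and 335.0 TPM in WT and 259.8 and 250.1 TPM in GATA2-/- HEs. The endothelial list summed to 8019 and 8457 TPM in WT and 10108 and 9534 TPM in GATA2-/- HEs, whereas the erythroid list summed to 316.6 and 227.9 TPM in WT and 165.0 and 112.7 TPM in GATA2-/- HEs.

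Arterial and Notch genes had no common direction. Of 15 genes, 2 were higher and 1 lower without overlap, against 14.4% and 18.9% of all genes. In this list 0 had an unadjusted p under 0.05, and the median was −0.01. NOTCH1 had 92.3 and 83.4 TPM in WT and 90.7 and 82.6 TPM in GATA2-/- HEs. The ligand gene DLL4 ranged from 25.2 to 68.5 TPM in GATA2-/- HEs, wider than the 44.8 to 58.5 TPM in WT. Of 11 venous and lymphatic genes, 1 was higher and 4 were lower without overlap, against the same shares of all genes. PROX1, the lymphatic master factor, was low in both genotypes, at 1.87 and 2.68 TPM in WT and 0.51 and 0.70 TPM in GATA2-/- HEs (log2 fold change −1.02). PROX1 and LYVE1, both among the 4 lower genes, passed the expression filter only through their WT libraries, so the filter set their direction. NR2F2, the venous factor, overlapped.

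Genes of the BMP and TGF-beta pathways, in which ligands act through receptor kinases and SMAD proteins to switch on ID genes, had mostly small positive differences. Of 18 genes, 15 had a log2 fold change above 0, and the median was 0.25. Without overlap, 9 were higher and 1 was lower, against 14.4% and 18.9% of all genes. Among the receptors BMPR1A differed by 0.47, TGFBR1 by 0.38 and ACVRL1 by 0.35. The ligand genes BMP4 and BMP2 differed by 0.22 and −0.34. The extracellular inhibitor gene NOG was low, at 1.31 and 3.12 TPM in WT and 5.09 and 5.44 TPM in GATA2-/- HEs. Among the targets ID1 had 170.3 and 243.9 TPM in WT and 357.4 and 398.5 TPM in GATA2-/- HEs (log2 fold change 0.89, unadjusted p = 0.0127 from limma), and ID3 overlapped. In HPCs ID1 differed by −0.17. ID1 lies on chromosome 20 from 30193086 to 30194318 (GRCh37). Of the 18 other described genes within 1 Mb, 11 were also higher without overlap, against 14.4% of all described genes. The median of the 18 was 0.42 in HEs and 0.53 in HPCs. The part of that neighbourhood in the ID1 difference was not tested.

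Immediate early genes, which are transcribed soon after a stimulus, had mostly negative differences. Of 21 genes, 11 were lower and 1 higher without overlap, against 18.9% and 14.4% of all genes. At an unadjusted p under 0.05, 5 were lower (3.13% of all genes), and the median was −0.38. FOS, a subunit of the AP-1 factor, had 116.0 and 142.8 TPM in WT and 28.6 and 54.9 TPM in GATA2-/- HEs (log2 fold change −1.67, standard error 0.32). FOSB, EGR1, EGR3 and JUNB differed by −1.29, −1.28, −1.22 and −1.07. JUN, IER2 and ATF3 overlapped between genotypes. In HPCs FOS differed by −0.81 and EGR1 by 0.00.

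The remaining lists checked proliferation and other cell types. Their counts stand against 14.4% higher and 18.9% lower without overlap among all 13115 genes. Of 22 cell cycle genes, 0 were higher and 1 was lower without overlap, with a median of −0.07 and a range from −0.42 to 0.30. Of 12 mesenchymal genes, 3 were lower and 1 higher without overlap. LUM, which encodes the matrix protein lumican, had 22.9 and 13.4 TPM in WT and 4.65 and 5.54 TPM in GATA2-/- HEs, and the list sum was 1388 and 1199 TPM in WT and 1302 and 1171 TPM in GATA2-/- HEs. Among 7 pluripotency genes 1 was higher and 1 lower. POU5F1 was at most 3.02 TPM, but LIN28A was between 154.2 and 244.3 TPM and DNMT3B between 60.6 and 75.6 TPM in HEs. The pluripotency list summed to 388.6 and 309.4 TPM in WT and 347.0 and 274.2 TPM in GATA2-/- HEs, against 5892 and 5013 TPM in GATA2-/- hESCs. The higher gene, L1TD1, passed the expression filter only through its GATA2-/- libraries, so the filter set its direction. Among 8 epithelial and endoderm genes 1 was higher and 0 were lower. Among 15 interferon and antigen presentation genes 1 was higher and 3 were lower, with IFI6 at 4.24 and 9.26 TPM in WT and 0.53 and 1.14 TPM in GATA2-/- HEs. Among 9 inflammatory genes 2 were higher and 2 lower.

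The same genes were set beside their HPC values, which come from other libraries. The erythroid list had a median log2 fold change of 0.30 in HPCs, with 5 genes higher and 0 lower without overlap, against 21.4% and 15% of all described genes. The platelet list had an HPC median of 0.00 and the transcription factor list one of 0.13. Other lists had negative medians in HPCs. The pan-blood list had a median of −0.51 (12 of 19 genes lower and 1 higher without overlap), the myeloid list −0.27 (6 of 15 lower and 2 higher), the immediate early list −0.34 (8 of 21 lower and 3 higher) and the interferon and antigen presentation list −0.38 (10 of 15 lower and 0 higher). The endothelial list had an HPC median of 0.42, at lower levels. In HPCs 13 of all genes tested (0.0603%) passed the adjusted threshold. NFE2 differed by −2.33 in HEs and 0.14 in HPCs, MYB by −1.81 and 0.13, and ITGB3 by −2.18 and 0.34. The difference between the effects in the 2 stages was tested in the same limma fit. It passed the adjusted threshold for 0 genes, while 1281 of all genes tested (5.95%) and 639 of the described genes (4.87%) had an unadjusted p under 0.05, including GATA1 (unadjusted p = 0.000876), ITGB3 (0.0015) and MYB (0.00308). By that count, 7 of the 23 transcription factors, 5 of the 11 erythroid genes and 5 of the 15 platelet genes were among them.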

How the data were processed

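RNA-Seq was analysed in 10 libraries, 2 in each of 5 groups. Per the study's methods, RNA was purified with Trizol, TruSeq libraries were sequenced on a MiSeq as short single-end reads, adapters were trimmed with Trimmomatic and reads were mapped to hg19 with Bowtie. The submitters' processing notes list Bowtie, RSEM, hg19 and mm10 with no role. The authors deposited TPM per gene, which scales every library to nearly the same total (998299 to 999106), so depth is unknown and precision was judged from the replicates alone. The tests of the study (Cuffdiff) need alignments and were not repeated.

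From the deposited TPM, log2(TPM + 1) was fitted in limma 3.58.1 (R 4.3.3, eBayes with trend) over all 10 libraries with 1 shared variance estimate, for 21543 genes (TPM 1 or more in 2 or more libraries), with Benjamini-Hochberg adjustment and a threshold of 0.05. The procedure was tested on simulated data. Protein-coding type and GRCh37 positions came from GENCODE v44lift37 by Ensembl ID (13016 genes) and from RefSeq by symbol (99 genes). Promoters are from RefSeq GRCh38.p14.

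Named genes were GATA2, protein-coding genes past the adjusted threshold, the 12 largest differences in each direction (mean TPM of at least 10 in HEs, no overlap, unadjusted p under 0.05) and genes of 16 lists. The genes described and the lists were chosen with earlier results of these data known, so lists are given as counts and medians with no test. Replicate 2 headers of HEs and HPCs of both genotypes share a suffix that no source used here explains, and neither labels nor methods pair same-numbered libraries, so no block was used in the fit reported. Alternatives were another pseudocount, other filters, only the libraries compared, quantile normalization, eBayes without trend, a block on the replicate number, protein-coding genes alone, and each HE library left out. Some listed genes are counted with their lists but are not reported here by name.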

Additional observations from a re-analysis of the deposited data

How the results depend on the processing

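The number of genes past the adjusted threshold in HEs depended on the processing. It was 4 in the fit reported, 13 with no filter on low genes, 2 with a filter of TPM 5 or more in 2 or more libraries, 0 with only the libraries compared (1467 at an unadjusted p under 0.05), 12 with eBayes without trend, 7 when only protein-coding genes expressed in HEs were fitted, and from 0 to 0 with each HE library left out (818 to 1144 unadjusted). Among protein-coding genes it was 1, and became 0 with only the libraries compared, 7 when these genes were fitted alone (all lower, CKB, CLDN10, CRYM, GATA1, PF4 and SPI1 among them), and from 0 to 0 with a library left out. The cause was not tested. For the pairing of same-numbered libraries, whose replicate differences correlated across genes with r = 0.123 between genotypes in HEs, a replicate block gave 2 genes, and a replicate block within each stage gave 7, with 5 protein-coding (CKB, GATA1, HBE1 and PF4 among them). The stage difference had 0 genes, and from 0 to 1 with a library left out. The platelet median moved from −0.77 to −1.06 with a pseudocount of 0.1. With each library left out it lay between −0.93 and −0.59, the erythroid median between −1.38 and −1.12, the transcription factor median between −0.66 and −0.33 and the endothelial median between 0.15 and 0.31. Of the 25 genes named by size, call or target, 24 kept their sign in all 13 alternative settings, and GATA2 did not (−0.06 to 0.38 with a library left out). With 2 libraries a group and unknown depth, differences near the median standard error of 0.30 could not be resolved. Far larger ones, such as −2.41 for GATA1 and −3.04 for CHCHD2, also missed the adjusted threshold in the fit reported. The standard error of CHCHD2 (0.75) took in the spread of its HPC and hESC libraries, not of its HE libraries alone. A gene that was not called may therefore still differ.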

Other observations

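Genes at 50 TPM or more in all 4 HPC libraries and under 1 in both GATA2-/- hESC libraries, a rule chosen after the values were seen, gave 38 of the 13115 genes. In HEs 26 of them were lower and 4 higher without overlap (18.9% and 14.4% of all described genes). In limma 23 were lower at an unadjusted p under 0.05 (3.13% of all described genes), and the median log2 fold change was −0.77. Since the rule used the HPC levels of both genotypes, the HPC difference of these genes is not compared. Besides the genes described above they included RHAG, the Rh-associated glycoprotein of red cells, with 84.3 and 62.4 TPM in WT HEs and 39.7 and 13.9 TPM in GATA2-/- HEs. MYL4, an embryonic myosin light chain, had 102.8 and 59.5 TPM in WT and 50.4 and 15.7 TPM in GATA2-/- HEs. GAD1, a glutamate decarboxylase, had 130.1 and 120.3 TPM in WT and 75 and 27.0 TPM in GATA2-/- HEs. The summed TPM of the 38 genes overlapped between genotypes (4017 and 3509 in WT, 4101 and 3343 in GATA2-/- HEs), and the endothelial genes PLVAP and CDH5 are among the 38. The complementary set, under 5 TPM in HPCs with a mean of at least 20 TPM in HEs and under 1 TPM in hESCs, held 23 genes, of which 1 was lower and 8 were higher without overlap, with a median of 0.13.

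CKB, the brain-type creatine kinase, was called in HEs in 2 of the alternative fits. It had 271.0 and 285.6 TPM in WT HEs and 117.5 and 109.8 TPM in GATA2-/- HEs (log2 fold change −1.29, standard error 0.19, adjusted p = 0.133 from limma in the fit reported). In HPCs it fell, with 1210 and 923.0 TPM in WT and 334.5 and 234.0 TPM in GATA2-/- cells (−1.91, adjusted p = 0.0177 from limma). The tight junction gene CLDN10 (−2.21) and the crystallin-related gene CRYM (−1.93) were lower in HEs without overlap, and differed by −0.15 and 0.16 in HPCs.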
